A study of Mus musculus with 4 samples.

Results

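The genes described here are 10 imprinted genes of the mouse: Peg10 with its neighbour Sgce, and Peg3, H19, Igf2, Igf2r, Mest, Plagl1, Meg3 and Grb10. They were taken as the rows, in 2 deposited Cuffdiff tables, whose gene symbols hold one of these names. Each of the 10 had 1 row among the 22440 rows of the bulk and mammosphere table. Of the 11708 rows of the knockdown table, 6 were members, and H19, Igf2, Plagl1 and Meg3 had no row there. Peg10 was chosen by its lower FPKM in the Cbx8 shRNA library, and the other 9 were set beside it by name, so Peg10's knockdown values are a description, with no test, and support nothing.

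The cells are MMTV-Myc mouse mammary tumour cells, in which the mouse mammary tumour virus promoter drives a Myc transgene, and every group carries that transgene. Polyadenylated RNA was sequenced from 4 groups of 1 library each. Bulk cells (day 0, labelled wild type) grew in medium with serum and insulin, and mammosphere cells (day 20, labelled wild type) grew as suspended spheres with EGF and bFGF. Control shRNA cells carried a lentiviral hairpin named in the labels both as scrambled and as directed against luciferase, and Cbx8 shRNA cells carried a hairpin named sh68. Both hairpin cultures were kept in puromycin, and whether they grew as spheres is not stated in the sources used here. The knockdown rests on this single hairpin. Cbx8, a chromodomain protein of Polycomb repressive complex 1, was at 4.74 FPKM with the control hairpin and 1.23 FPKM with the Cbx8 hairpin.

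Imprinted genes are expressed mainly from the chromosome inherited from 1 parent, a choice set in most cases by DNA methylation laid down in the germ line. Most lie in clusters that share a control region, and many act on growth in the embryo and placenta, where paternally expressed genes such as Igf2 often promote growth and maternally expressed genes such as Igf2r, Cdkn1c and Grb10 often restrain it. Several are turned down after birth, and some are expressed again in tumours. The tables give 1 total level per gene and do not separate the parental alleles.

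Levels are FPKM values, which divide the fragments of a gene by its length and by the size of the library. Depth is unknown, since the files hold no counts, so no counting interval or detection limit was computed. With 1 library per group every difference compares 2 libraries, has no estimate of the spread between cultures and carries no p-value. Differences are log2 ratios with 1 FPKM added to both values, which makes differences between small values look smaller. A gene counts as higher or lower from 2-fold on that scale, among rows that reached 1 FPKM in at least 1 of the libraries. The tables were made separately and share no library, so differences were taken within a table. Of the 11 luminal epithelial markers, the keratin gene Krt18 led in all 4 libraries, at 570 FPKM in bulk, 58.2 in mammosphere, 261 in control and 256 in knockdown cells. The luminal factor gene Gata3 was at 25.0, 18.5, 39.8 and 41.6 FPKM in that order, and the junction gene Cldn3 at 1.77, 0.276, 22.8 and 24.9. The adhesion genes Epcam and Cdh1 did not exceed 1.06 FPKM in any library.

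Promoter sequences were looked up for the members in RefSeq (GRCm38.p6), and 7 of the 10 had entries. Those of Igf2r and Peg3 are shown because they are the members with an entry that reached 5 FPKM in a library. Each run is the 250 bases before the annotated start, 5′ to 3′ on the gene's strand, with the letters CACGTG in capitals. CACGTG is the E-box that Myc and its partner Max recognise, and it reads the same on both strands.
Igf2r, chr17:12769707-12769956, minus strand: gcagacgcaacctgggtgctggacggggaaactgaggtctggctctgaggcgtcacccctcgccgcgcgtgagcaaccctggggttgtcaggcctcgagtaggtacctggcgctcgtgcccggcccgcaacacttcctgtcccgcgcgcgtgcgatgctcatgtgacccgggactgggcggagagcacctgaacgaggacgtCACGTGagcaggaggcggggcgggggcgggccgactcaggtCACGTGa
Peg3, chr7:6730420-6730669, minus strand: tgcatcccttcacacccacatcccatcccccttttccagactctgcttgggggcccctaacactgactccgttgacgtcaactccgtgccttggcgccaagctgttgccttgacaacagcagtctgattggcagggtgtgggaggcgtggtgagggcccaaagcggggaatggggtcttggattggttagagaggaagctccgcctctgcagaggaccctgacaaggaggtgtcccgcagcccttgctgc
The Igf2r run holds 2 such E-boxes and 27 CpG dinucleotides, and the Peg3 run holds 0 and 8. Over windows of 300 bases, which add the first 50 after the start, 2 of 14 member windows held CACGTG, that of Igf2r and that of Plagl1. Of all 32851 windows in the RefSeq table, 7.15% held it. A match is a description of these letters and not of binding.

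Peg10 and Sgce form a head-to-head pair. Peg10 encodes a protein derived from the gag and pol genes of a retrotransposon and is needed for placental growth, and Sgce encodes epsilon-sarcoglycan, a membrane glycoprotein. Both are paternally expressed. In mm9, the build of the files, the Peg10 row spans chromosome 6, 4697306 to 4710516, and the Sgce row spans 4624350 to 4697204. Their ends lie 101 bases apart, and GENCODE M21 puts Peg10 on the plus and Sgce on the minus strand, so the genes start next to each other.

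Peg10 was at 18.4 FPKM with the control hairpin and 7.34 FPKM with the Cbx8 hairpin. Sgce was at 31.0 FPKM with the control hairpin and 33.1 FPKM with the Cbx8 hairpin. The knockdown library therefore had less Peg10 (2.50-fold as a plain ratio, log2 −1.22), while Sgce was nearly level (log2 0.09). Among all 10685 rows at 1 FPKM or above, 23 had a lower log2 value than Peg10. Relative to Sgce, the Peg10 level was 0.594 with the control hairpin and 0.222 with the Cbx8 hairpin, a difference of −1.31 in log2 change between the neighbours. With 5 FPKM added in place of 1, the Peg10 log2 value was −0.92, short of 2-fold.

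In the other table Peg10 was at 35.2 FPKM in bulk and at 29.2 in mammosphere cells, and Sgce at 40.3 and 27.5 FPKM. Both were somewhat lower in mammospheres and neither reached 2-fold (log2 −0.26 for Peg10 and −0.53 for Sgce). With upper quartiles of the libraries set equal, the Peg10 value was 0.05, so its direction depends on the scaling. The authors' deposited table lists q = 0.919 for Peg10 and q = 0.725 for Sgce in this comparison. Peg10 over Sgce was 0.873 in bulk and 1.06 in mammospheres, and the neighbours differed by 0.28 in log2 change.

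**Figure D1:**
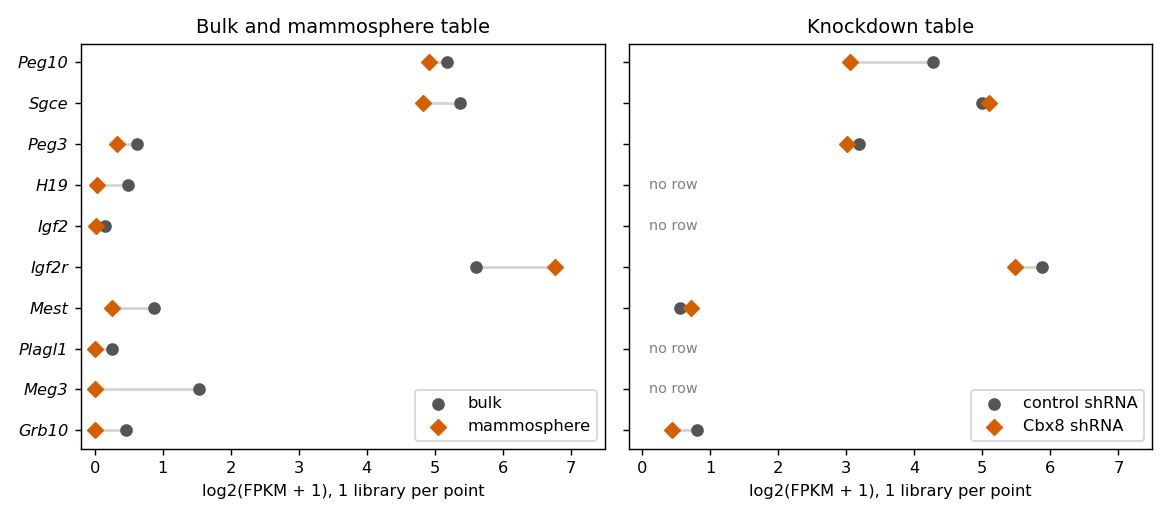
Level of each member gene as log2(FPKM + 1), 1 library per point, with grey lines joining the libraries of a table; members without a row are marked. Peg10 parts in the knockdown table (18.4 and 7.34 FPKM) while Sgce does not, and Igf2r is the only member higher in mammospheres.

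Igf2r encodes the maternally expressed receptor that carries IGF2 and mannose-6-phosphate-tagged enzymes to lysosomes. It was at 47.9 FPKM in bulk and at 108 in mammosphere cells. It was 2.26-fold higher in mammospheres (log2 1.16), the only member past 2-fold in that direction, where 3.54% of all rows passed it. The authors' deposited table gives q = 0.364 for this row. With fold changes centred on the median gene the value was 1.34. In the knockdown table Igf2r was at 57.5 FPKM with the control hairpin and 43.7 FPKM with the Cbx8 hairpin (log2 −0.39). The Igf2r row (mm9 chromosome 17, 12875272 to 13061009) is listed with the same span as Airn, the antisense RNA that silences the paternal Igf2r copy. Such a listed span can cover more than 1 gene. Airn was at 4.59 FPKM in bulk, 6.52 in mammosphere, 4.66 in control and 4.00 in knockdown cells. No source used here states that the libraries kept strand, so reads where this antisense pair overlaps may not be told apart.

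Apart from Peg10, Sgce and Igf2r, Peg3 was the only member at 5 FPKM or above in any library. It encodes a paternally expressed zinc finger protein (mm9 chromosome 7, 6658671 to 6683130). It was at 8.06 FPKM with the control hairpin and 7.09 FPKM with the Cbx8 hairpin (log2 −0.16). In the other table it was at 0.547 FPKM in bulk and at 0.260 in mammosphere cells. The hairpin libraries were high and the other pair low, although the tables were normalized separately.

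The maternally expressed long noncoding RNA Meg3 shares its row with 2 microRNAs (mm9 chromosome 12, 110779206 to 110809939). It was at 1.89 FPKM in bulk cells and listed at 0 in mammospheres, and it counts as the only member at least 2-fold lower there with 1 FPKM added, where 17.3% of all rows did. The authors did not test this row, and with 5 FPKM added it no longer reached 2-fold (log2 −0.46). Neighbouring noncoding RNAs of the same cluster were under 1 FPKM. Rian was at 0.615 FPKM in bulk cells but listed at 0 in mammospheres, and the row holding Mirg was at 0.861 and 0.0191 FPKM. The cluster's protein genes Dlk1, Rtl1 and Dio3 did not exceed 0.106 FPKM in bulk and were listed at 0 in mammospheres. None of these 6 genes had a row in the knockdown table.

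The remaining members were under 1 FPKM in every library that lists them. In mm9, H19 spans 149761437 to 149764051 and Igf2 149836673 to 149856261 on chromosome 7, Plagl1 12810594 to 12851501 on chromosome 10, and Grb10 11830502 to 11937423 on chromosome 11. The maternal noncoding RNA H19 was at 0.400 FPKM in bulk and at 0.0194 in mammosphere cells, and its neighbour Igf2, the fetal growth factor, at 0.116 and 0.0110. The transcription factor gene Plagl1 was at 0.195 FPKM in bulk cells but listed at 0 in mammospheres, as was Grb10, an adaptor that restrains insulin and IGF receptors, at 0.379 FPKM in bulk. Mest, a paternally expressed gene of the hydrolase fold family, was at 0.830 and 0.193 FPKM. Each of these 5 was lower in mammospheres than in bulk, at levels where the 1 FPKM added hides most of the difference. In the knockdown table Mest was at 0.463 FPKM with the control hairpin and 0.644 with the Cbx8 hairpin, and Grb10 at 0.742 and 0.360.

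In all, 9 of 10 members had a lower FPKM in mammospheres than in bulk, 6 of them, Peg3 included, from under 1 FPKM. Among all 5724 rows under 1 FPKM in both libraries and above 0 in at least 1, 77.2% were lower in mammospheres. The median log2 change over all rows at 1 FPKM or above was −0.24, with 7571 of 11603 below 0, and 411 were 2-fold higher and 2002 lower. Centring on the median gene made this split 653 to 1548, and equal upper quartiles made it 826 to 1561. The 4 members at 1 FPKM or above had a median of −0.40. Many cell type markers were lower in the same comparison, epithelial ones included. Of 11 luminal markers 8 reached 1 FPKM, 5 of these were at least 2-fold lower and none higher, and the list summed to 956 FPKM in bulk and 94.2 in mammospheres, with Krt8 at 334 and 5.14. The keratin Krt19 was the 1 luminal marker above 0, at 9.08 and 9.65 FPKM. Of 8 basal markers 4 reached 1 FPKM and all 4 were at least 2-fold lower, with sums of 52.8 and 6.52 FPKM. Of 12 fibroblast markers, 10 were at least 2-fold lower in mammospheres and none higher, and their summed level was 402 FPKM in bulk and 18.9 in mammospheres, with Lum, Thy1 and Postn listed at 0. Of 16 leukocyte marker symbols 15 had a row, and the other, Adgre1, names the same gene as Emr1, which had a row. Of the 15 rows 14 were at least 2-fold lower, with sums of 404 and 1.39 FPKM and 6 listed at 0 in mammospheres. Of 6 endothelial markers, 2 were lower, with sums of 6.53 and 0.375 FPKM. The part of these cell types in the lower members was not tested, and fewer cells of a type cannot be told apart from less RNA per cell.

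Most markers of those other cell types had no row in the knockdown table, so their levels there are not known. The leukocyte sum was 0.759 FPKM with the control hairpin and 0.588 with the Cbx8 hairpin, from 2 of the 16 symbols. The fibroblast sum, from 4 of 12 markers, was 53.0 and 62.8 FPKM, of which the collagen Col5a1 alone gave 49.3 and 61.1. None of the 6 endothelial markers had a row. The basal keratin Krt14, the only basal marker with a row, was at 1.09 and 10.5 FPKM, and its part in the Peg10 difference was not tested. Among the 6 members listed, 4 were lower and 2 higher in the knockdown library, and only Peg10 passed 2-fold, where 0.449% of all rows were 2-fold lower and 0.299% 2-fold higher. The rule used Peg10's value, so nothing is read from that count. In the mammosphere comparison the authors tested only 3 of the 10 members, Peg10, Sgce and Igf2r, and left 7 untested. By q under 0.05 in their deposited table, none of the 3 was called there. Of tested rows 1.73% were called higher and 10.2% lower. In the knockdown comparison Peg10 was the only member called (q = 0.0325), beside 0.128% of rows called higher and 0.0769% lower. That call rests on the change by which Peg10 was chosen, so nothing is read from it either.

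The genes around Peg10 were followed for 1 Mb on either side. The knockdown comparison held 8 rows there, 7 of them at 1 FPKM or above, and Peg10 was the only row past 2-fold. Of all rows, 0.449% were 2-fold lower and 0.299% 2-fold higher. Peg10 was chosen by this change, so nothing is read from its being the only such row. Casd1, which encodes a sialic acid acetyltransferase, was at 26.7 FPKM with the control hairpin and 27.1 with the Cbx8 hairpin. The paraoxonase gene Pon3 was at 32.7 and 38.7 FPKM, and Pon2 at 49.5 and 69.7. Bet1, which encodes a vesicle fusion protein, was at 21.5 and 22.8 FPKM, and the kinase gene Pdk4 at 3.46 and 3.27. Sgce, Casd1, Pon3, Pon2 and Bet1 were thus level or higher in the library in which Peg10 was lower.

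In the mammosphere comparison the region held more differences. Of 10 rows at 1 FPKM or above, 6 were at least 2-fold lower in mammospheres and none was 2-fold higher, beside 17.3% and 3.54% of all rows. Pon3 was at 41.9 FPKM in bulk and at 12.9 in mammosphere cells, and Pon2 at 35.0 and 13.5, with q = 0.0499 and q = 0.141 in the authors' deposited table. The protease inhibitor gene Tfpi2 was at 1.68 and 0.0397 FPKM, and the G protein subunit gene Gng11 at 2.86 and 0.0362. Col1a2, a collagen gene and fibroblast marker, was at 61.7 and 0.0121 FPKM, and Pdk4 at 98.1 and 0.0571. Casd1 (25.6 and 16.4 FPKM) and Bet1 (18.0 and 10.3) stayed under 2-fold, as did Peg10 and Sgce. The largest rescaling tried added 0.32 in log2, too little to change the sign for Pon2 or Pon3, so nothing is read from their sign under rescaling.

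**Figure D2:**
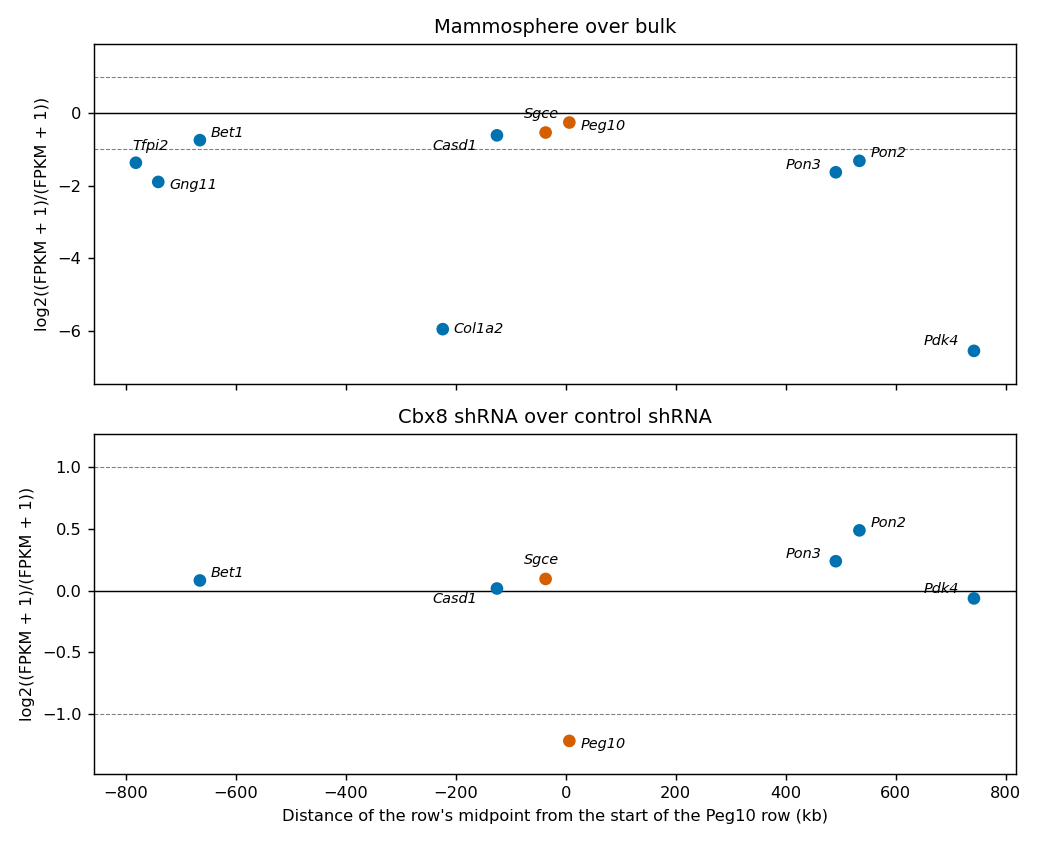
log2 ratio with 1 FPKM added for each row at 1 FPKM or above within 1 Mb of Peg10, against the distance of its midpoint from the start of the Peg10 row in kb; orange points are Peg10 and Sgce, and dashed lines mark 2-fold. In the knockdown panel Peg10 (−1.22), chosen by this change, is the only point past a dashed line. In the mammosphere panel 6 of 10 points lie below −1.

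Around the other members, windows of 250 kb were searched for rows at least 2-fold different. None was found in the knockdown table. In mammospheres 3 genes near H19 and Igf2 were lower. The synaptotagmin Syt8 was at 9.24 FPKM in bulk and at 0.218 in mammosphere cells, the leukocyte protein gene Lsp1 at 13.2 and 1.62, and the troponin Tnni2 at 1.89 and 0.0140. Tnnt3, a troponin gene listed with the same span as Lsp1, was higher there, at 0.870 and 9.16 FPKM. Whether reads were shared between them was not tested. Near Igf2r the thiolase genes Acat2 and Acat3 were higher, at 7.93 and 48.2 FPKM and at 1.23 and 15.2 FPKM. Whether these close relatives share reads was not tested. Stx11 (15.2 and 3.77 FPKM) and Ltv1 (22.5 and 6.09) were lower near Plagl1. Near Grb10 the lymphoid factor Ikzf1 was at 1.33 FPKM and listed at 0 in mammospheres, and Fignl1 was at 3.31 and 11.3 FPKM. The Mest window held no such row, and Copg2, antisense to Mest and listed with the same span (mm9 chromosome 6, 30688063 to 30846760), was at 23.6 and 15.0 FPKM in bulk and mammospheres.

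A wider list of 76 symbols of genes classed as imprinted, the members included, was followed as the rest of the family. In it Ago2 and Eif2c2 name the same gene, which had a row as Eif2c2 only. The list was drawn up by name, and whether each gene is imprinted in these cells was not tested. In the mammosphere comparison 73 had a row and 35 reached 1 FPKM, with 2 higher and 5 lower by 2-fold or more. Their median log2 change was −0.27, beside −0.24 over all rows. Besides Igf2r, the higher gene was Qpct, a glutaminyl cyclase, at 0.959 FPKM in bulk and at 5.63 in mammosphere cells. The lower genes were Pon3, Pon2, Tfpi2, Meg3 and Dcn. The last encodes the matrix proteoglycan decorin, at 13.7 and 0.0521 FPKM, and is also one of the fibroblast markers above. The share of lower genes, 5 of 35, lay near the 17.3% of all rows. Outside the 10 members the list gave 1 higher and 4 lower of 31.

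**Figure D3:**
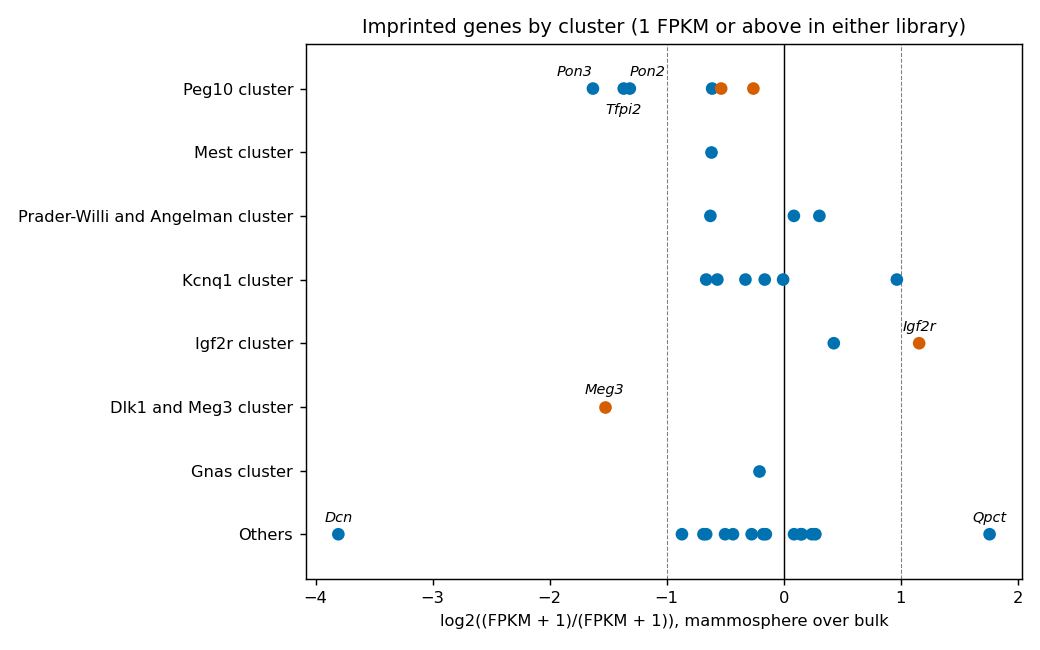
log2 ratio with 1 FPKM added, mammosphere over bulk, for the 35 imprinted genes at 1 FPKM or above in either library, by cluster; orange points are members, and dashed lines mark 2-fold. All 6 points of the Peg10 cluster lie below 0 and both points of the Igf2r cluster above it; Meg3 is listed at 0 in mammospheres, so its place depends on the 1 FPKM added.

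In the knockdown comparison 39 of the 76 symbols had a row, 34 reached 1 FPKM, and Peg10, chosen by this change, was the only one past 2-fold. Of all rows, 0.449% were 2-fold lower and 0.299% 2-fold higher. The median of the list was −0.01, as over all rows (−0.006). Of the 34 genes, 16 were above 0 and 18 below. The nearest to the limit besides Peg10 were Cdkn1c and Phlda2, named after their values were seen, maternally expressed genes of the Kcnq1 cluster. Cdkn1c, the CDK inhibitor p57, was at 8.07 FPKM with the control hairpin and 3.79 with the Cbx8 hairpin (log2 −0.92). Phlda2, a regulator of placental growth, was at 4.92 and 2.19 FPKM (log2 −0.89). As plain ratios these were 2.13-fold and 2.24-fold lower, with q = 0.858 and q = 0.999 in the authors' deposited table. Other genes, also named after their values were seen, were nearly level, such as the cluster's histone chaperone gene Nap1l4 at 88.4 and 89.7 FPKM and Cd81 at 323 and 322. The most abundant gene of the list, Gnas, which encodes a G protein alpha subunit, was at 955 and 960 FPKM.

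**Figure D4:**
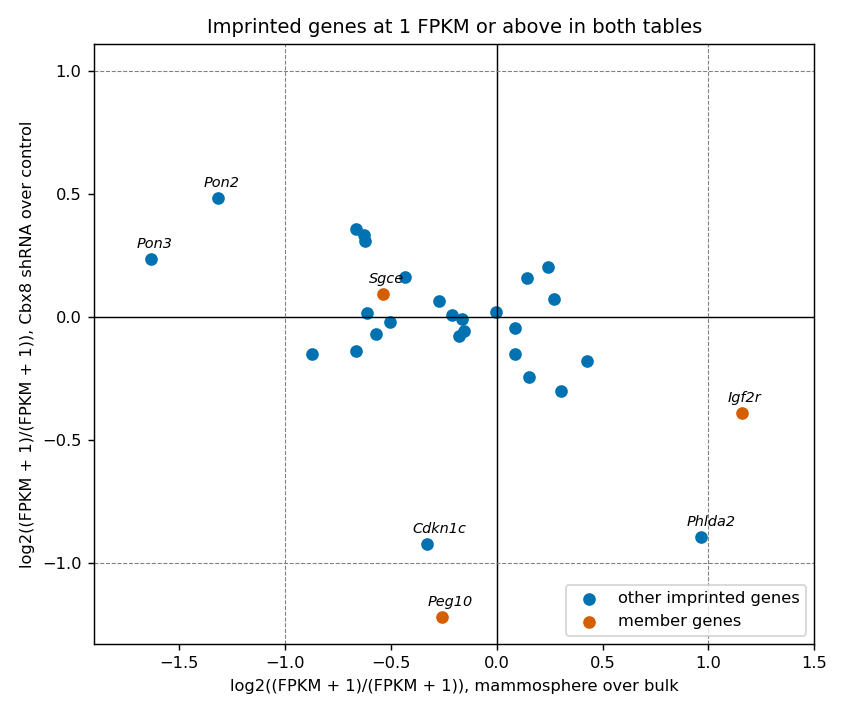
log2 ratio with 1 FPKM added, mammosphere over bulk (horizontal) and Cbx8 shRNA over control (vertical), for the 30 imprinted genes at 1 FPKM or above in both tables; orange points are members and dashed lines mark 2-fold. Peg10 lies below the lower line with Cdkn1c and Phlda2 just above it, Igf2r lies beyond the right line, and Pon2 and Pon3 lie beyond the left line.

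Of the 34 list genes with a row in the mammosphere table only, 31 were under 1 FPKM in both bulk and mammosphere cells. The exceptions were Dcn, Meg3 and Tfpi2. The knockdown table holds no row at 0, and the level of a gene without a row there is not known.

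Some genes of IGF signalling, the pathway that Igf2, Igf2r and Grb10 act on, were lower in mammospheres, mostly those of secreted binding proteins. Of 18 genes 10 reached 1 FPKM, of which 5 were at least 2-fold lower and none higher, beside 17.3% and 3.54% of all rows (median −1.10, with Igfbp3 and Igfbp5 listed at 0 in mammospheres). The fibroblast and leukocyte markers above fell in the same comparison, and their part in this list was not tested. The secreted binding protein Igfbp7 was at 81.4 FPKM in bulk and at 0.669 in mammosphere cells, Igfbp6 at 26.3 and 2.70, and the receptor substrate Irs2 at 27.9 and 3.11. In the knockdown table none of 9 reached 2-fold in either direction, as 0.449% of all rows did downward and 0.299% upward. The median was −0.33 with 8 of 9 below 0, beside 5471 of 10685 rows below 0 in all. Igfbp6 was at 7.55 and 4.36 FPKM there, Irs2 at 5.43 and 3.17, and the insulin receptor Insr at 16.2 and 11.8.

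Factors that maintain imprints, or lay down the marks they rest on, were also listed. Of 17, 14 reached 1 FPKM in the mammosphere comparison, 2 were at least 2-fold higher and none lower, beside 3.54% and 17.3% of all rows (median 0.12). These were the maintenance DNA methyltransferase Dnmt1, at 23.8 FPKM in bulk and at 51.2 in mammosphere cells, and its recruiter Uhrf1, at 19.2 and 55.3, with q = 3.41e-11 and q = 4.96e-06 in the authors' deposited table. The chromatin gene Arid4b was at 11.6 and 6.68 FPKM. In the knockdown table none of 13 passed 2-fold (median −0.12). With 1 FPKM added, the largest differences among the 15 with a row were in Dnmt3b (0.926 and 0.499 FPKM, under 1 FPKM in both libraries), the Polycomb methyltransferase Ezh2 (46.5 and 59.8) and Zfp57, a zinc finger protein that protects imprints (18.4 and 14.2). That order depends on the scale, since as a plain ratio Dnmt3a (6.31 and 4.81 FPKM) differed 1.31-fold, slightly more than Zfp57 and Ezh2.

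Genes whose pair of log2 changes lay closest to that of Peg10 were sought among 3884 genes that the authors tested in both tables and that reached 5 FPKM in each. The measure was the straight-line distance between pairs of changes, which rests on 2 values from 4 libraries. The nearest was Cpm, a membrane carboxypeptidase, at a distance of 0.26, with 65.7 FPKM in bulk, 64.7 in mammosphere, 188 in control and 74.3 in knockdown cells. Tmem51 and Fam49b followed, both at 0.36, and then Notch1 and Rcor2, both at 0.50. Around Sgce the plane was far fuller. Its 5 nearest genes, Atp6ap2, Sh3gl1, Spag9, Lrrc58 and Qk, all lay within 0.02. Peg10 was chosen by its knockdown change, 1 of the 2 changes used here, while Sgce was nearly level in it. The contrast between the neighbours follows from that choice, and nothing is read from it.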

How the data were processed

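Polyadenylated RNA was measured in 4 libraries, 1 per group. The submitters' processing notes name TopHat 1.4.0 with build mm9, Cufflinks 1.3.0, Cuffdiff (listed as 0.0.7) and FastQC 0.10.0, without settings. The authors deposited 2 Cuffdiff tables with FPKM per gene. A p-value and a q-value by the authors stand in each deposited row and are quoted only as theirs. Whole-read steps were looked for without a level to compare with: of 720 rows under 0.05 FPKM in both libraries of the mammosphere table, the fullest bin of log2 ratios held 12. Whether such steps are present is therefore not known. Row starts were counted from 0 in the files, and 1 was added.

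Log2 changes used a pseudocount of 1 FPKM, a minimum of 1 FPKM in either library and status OK or NOTEST. Counting was checked on simulated data with planted changes well past the fold limit and little noise. That checks the code and not calls near the limit. Computation used Python 3.11.15, pandas 2.3.3, numpy 2.4.6 and matplotlib 3.10.9. Alternatives were pseudocounts, FPKM minimums, fold limits, 2 rescalings, tested rows only, summed rows and the authors' own calls.

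The members, the lists and the alternatives were chosen with earlier results of these data known. Named genes were the members, list genes past 2-fold, rows around the members, the 3 largest changes of the IGF and imprint maintenance lists, and leading cell type markers. Others are marked, or (Airn, Copg2, Epcam, Cdh1, Cldn3, Dnmt3a, Lum, Thy1, Postn and the genes around Meg3) were added after their values were seen.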

Additional observations from a re-analysis of the deposited data

How the results depend on the processing

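No paired analysis was possible because each group is 1 library. Pseudocounts, minimums, fold limits and the choice of tested rows cannot change the sign of a log2 value. The 2 rescalings shifted values by at most 0.32 in log2, too little to turn a called gene. Nothing is therefore read from the signs of called genes. Peg10's difference in mammospheres, under 2-fold, did change sign with equal upper quartiles (0.05). With 0.1 FPKM added, 3 imprinted genes were 2-fold lower in the knockdown library (all rows 88 higher, 114 lower), and all rows higher in mammospheres numbered 668. With 5 FPKM added, no member was 2-fold lower in either comparison; of the wider list 1 was higher and 3 lower in mammospheres and 0 lower in the knockdown library; all rows were 143 higher and 960 lower in mammospheres, and 14 and 18 in the knockdown library. A minimum of 5 FPKM left 0 members and 3 list genes lower in mammospheres. At 1.5-fold, 12 list genes were lower in mammospheres (all rows 1144 higher, 3567 lower) and 3 in the knockdown library (224 and 233). At 4-fold, no member passed in either comparison, and of the list 0 were higher and 1 lower in mammospheres (61 and 643) and 0 lower in the knockdown library (8 and 10). Centring on the median of genes at 1 FPKM in both libraries (−0.19 in mammospheres) gave 653 higher rows, and equal upper quartiles 826. Among authors' tested rows in mammospheres 0 members were lower, 1 list gene was higher and 2 lower (151 and 654 rows). By the authors' q under 0.05, 0 of the 3 members they tested passed in mammospheres. Of list genes 1 passed there, which was lower (70 higher and 411 lower rows). In the knockdown library 15 and 9 rows passed. The cause of these shifts was not tested where the setting does not itself change which rows count. Depth is unknown, and values under 1 FPKM have no stated precision.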

Other observations

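Levels of some imprinted genes are set side by side here across the separately normalized tables. Peg3 was 14.7 times higher in the control shRNA than in the bulk library and 31.0 times higher than in the mammosphere library. Phlda2 (0.568 FPKM in bulk, 2.06 in mammospheres and 4.92 in the control shRNA library) was 8.67 times higher in the control shRNA than in the bulk library and 2.38 times higher than in the mammosphere library, and it differed 3.63-fold between bulk and mammosphere cells and was at 2.19 FPKM in the Cbx8 shRNA library. Snrpn, a splicing protein gene of the Prader-Willi and Angelman cluster (0.735, 1.14 and 4.96 FPKM), was 6.75 times higher, and Cdkn1c (1.72, 1.17 and 8.07 FPKM) 4.68 times higher. The median over 10099 rows at 1 FPKM or above in the bulk and control shRNA libraries was 1.33. Peg3, Phlda2 and Snrpn were under 1 FPKM in bulk, so they are not among those rows. Peg10 and Sgce went the other way, at 0.522 and 0.768 of their bulk levels, as did Mest at 0.557, from under 1 FPKM. These genes were picked after their values were seen, and culture, run and normalization cannot be told apart here.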
